A study of Mus musculus with 6 samples.

Results

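Nuclear receptors are transcription factors that are switched on or off by small fat-soluble molecules such as steroid and thyroid hormones, retinoids, oxysterols, fatty acids and drugs. The members described here were 30 nuclear receptor genes chosen by name from the 49 of the mouse genome counted here, with earlier results of these data known. All 30 were listed in the liver of every mouse, among 47234 genes used in all. Liver RNA-Seq had been performed on 3 laboratory mice and 3 wild mice (Mus musculus), 1 library per mouse. The laboratory mice were adult males of the inbred strain C57BL/6, killed on arrival from their supplier. The wild mice were adults, 1 male (wild mouse 1) and 2 females (wild mice 2 and 3), live-trapped at a pair of sites in New South Wales and kept for months under standard husbandry before they were killed. All 6 livers had been frozen without formalin fixation, and no mouse had been given a treatment according to the labels. Origin, strain, trapping and housing cannot be told apart in this design, and sex differed partly along with origin. The comparison of laboratory with wild mice asks how far the expression of a liver gene varies between an inbred and an outbred population.

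In liver, nuclear receptors couple the supply of nutrients, hormones and foreign compounds to the expression of metabolic genes. Many of them, among them the xenobiotic, oxysterol, fatty acid, thyroid hormone, retinoic acid and vitamin D receptors, bind DNA as a pair with a retinoid X receptor. Steroid receptors bind as pairs of their own kind, and several orphan receptors bind as single proteins or compete for the sites of the others. Without ligand, some receptors recruit corepressors, and with ligand they recruit coactivators.

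Expression was given as FPKM, fragments scaled to transcript length and to the number mapped in the library, which allows levels to be compared between genes, and as zFPKM, for which log2 FPKM is centred on the peak (mode) of the values of the same mouse and divided by their SD. The mode of log2 FPKM lay between 0.491 (laboratory mouse 1) and 2.51 (wild mouse 1), so that the zFPKM of every gene in a mouse depends on where its mode was placed. The median log2(FPKM + 0.1) over the 18621 genes tested ranged from -0.108 to 0.360 over laboratory and from 0.729 to 1.03 over wild animals, and a common shift of this kind makes most genes lower in FPKM in laboratory mice. Of the 30 genes, 6 share exons with a protein-coding gene on the opposite strand (Esrra, Nr1i3, Nr2c2, Nr2f6, Rarb and Thra), and whether the counting used strand is not given in the sources used here. Differences are given both in zFPKM and as relative log2 levels, meaning log2(FPKM + 0.1) less the median of the same mouse, the second being a scale chosen after seeing the data. Read counts were not available here, so library depth is unknown. The standard errors and p of limma use a variance drawn towards a trend over all genes. They can therefore be larger or smaller than a gene's own spread among 3 mice per group gives. In zFPKM, Nr1i2 had SDs of 0.02 and 0.144 in laboratory and wild mice and a standard error of 0.155. Very small p in zFPKM therefore do not measure the spread of the single gene. The summed FPKM of 9 hepatocyte markers, 43970 to 54440 in laboratory and 27750 to 34280 in wild mice, matched the labelled tissue but did not overlap between the groups. Of the 9, 6 were called in zFPKM (4 higher and 2 lower in laboratory mice; 66.7%, against 14.4% of all genes). In relative log2 level 4 were called (2 in each direction; 44.4%, against 47.3%). In these whole-liver samples, fewer cells of a type and less RNA per cell cannot be told apart. Of 10 female-biased liver genes, all 10 were called lower in laboratory mice in zFPKM, against 7.28% of all genes. Of 7 male-biased genes 5 were called higher (71.4%), against 7.17% of all genes. The female-biased genes summed to 2.91 to 5.46 FPKM over laboratory males and to 79.5 for wild mouse 1, also male. Wild mice 2 and 3, both female, reached 7644 and 5916. With sex as a covariate all 10 differences were still below 0 (median -1.475 in zFPKM). The male-biased genes summed to 825 to 1224 over laboratory males, 1019 for wild mouse 1, and 68.0 and 109 for wild mice 2 and 3. Sex was taken up by a fit with sex as a covariate and by a fit of males only, which had 1 wild mouse.

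Nuclear receptor genes were expressed at intermediate levels. Of the 30, 7 had an FPKM of at least 10 in every mouse, namely Nr1i3, Nr1h3, Nr2f6, Nr1i2, Nr1h2, Esrra and Rxra. A further 5, namely Nr2f1, Nr4a2, Nr4a3, Vdr and Pgr, stayed under 1 in every mouse. In zFPKM, 25 of the 30 lay between -2 and 2 in every mouse and none exceeded 2 in any mouse. The summed FPKM of the 30 genes reached 149, 185 and 227 in laboratory males against 343, 335 and 392 in wild animals, without overlap. By mean FPKM, the order in laboratory mice began with Nr1i3 at 31.4 ± 13.6 (SD, n = 3), Nr1h3 at 27.6 ± 3.82 and Nr2f6 at 24.1 ± 5.69, with Rxra 7th. In wild mice Rxra came 1st at 79.5 ± 8.24 FPKM, followed by Nr1i3 at 59.2 ± 23.0 and Nr1h3 at 52.1 ± 5.33. Of the 29 pairs of neighbours in these orders, the ranges over mice overlapped for 27 in laboratory and 21 in wild mice, so most neighbours did not differ beyond their spread. In laboratory mice the 2 gaps without overlap lay below Rxra and below Rara. The Spearman correlation between the group means over the 30 genes was 0.932, a description in which all points share the same 6 libraries.

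**Figure D1:**
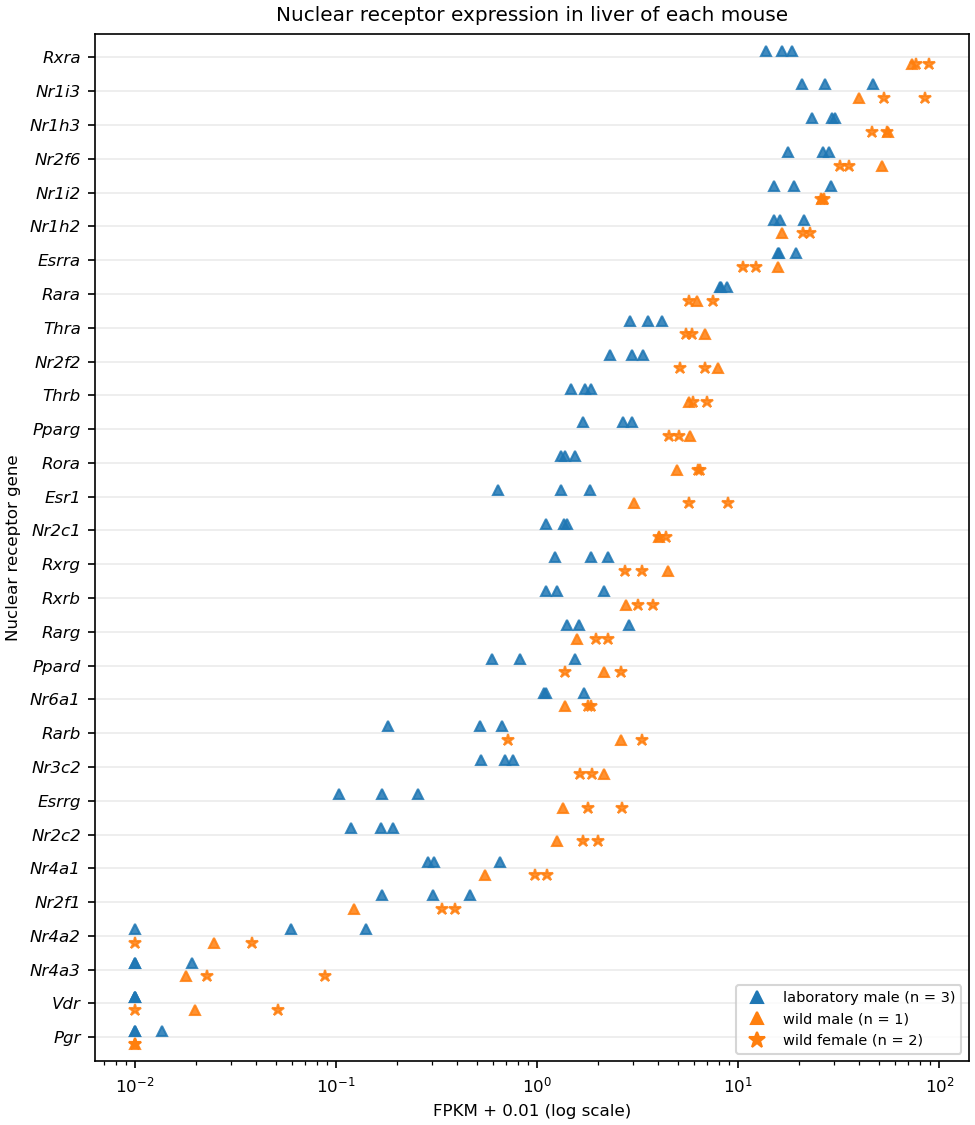
FPKM + 0.01 on a log axis for each of the 30 nuclear receptor genes (rows, ordered by the mean of the group means) in each mouse, 3 laboratory males, 1 wild male and 2 wild females. Rxra heads the order, and its laboratory mice sit at 13.7 to 18.4 FPKM, far to the left of the wild mice at 73.1 to 88.8, while Pgr and Vdr sit at or near 0.

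Of the 30 genes, 28 passed the filter on low values and were tested, all but Pgr and Vdr. In zFPKM, 1 of the 28 passed the test (3.57%), against 14.4% of all genes tested, and it was Rxra, lower in laboratory mice. Of all genes, 7.28% were called lower and 7.17% higher. A further 3 members, Esrrg, Nr2c2 and Esrra, had an unadjusted p under 0.05 and did not pass after adjustment. On the relative log2 scale 11 of the 28 passed (39.3%), against 47.3% of all genes. Rxra, Esrrg, Nr2c2, Rora, Thrb, Nr2c1 and Esr1 were lower in laboratory mice, and Rara, Esrra, Nr4a2 and Nr1h2 were higher. Among these, 9 members (32.1%) passed in the same direction under each of 3 scalings with a common centre (zFPKM with a median of 0, quantile-normalised zFPKM and the relative log2 level), against 26.1% of all genes. They were the 7 lower genes and Rara and Esrra. With log2(FPKM + 0.1) left uncentred, 16 members were called, all lower in laboratory mice, against 37.9% of all genes called lower. With sex as a covariate none of the 28 passed in zFPKM (5 had an unadjusted p under 0.05), against 7.38% of all genes. Without laboratory mouse 3, Rara and Esrra passed as well in zFPKM (higher in laboratory mice), and without wild mouse 1 Esr1 and Esrrg did (lower). Without a filter on low values 23 of all genes passed and with males only none did (3120 had an unadjusted p under 0.05, limma), and every zFPKM call named here and below was lost in both. Without the trend of the variance, the calls of Cyp2b10, Cyp2c29, Ugt1a1 and Cyp26b1 were kept, and the other calls named were lost.

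In FPKM the groups did not overlap for 17 of the 28 (60.7%; 16 lower and 1 higher in laboratory mice), against 55.8% of all genes (43.7% lower and 12.1% higher). On the relative log2 scale they did not overlap for 16 (57.1%; 8 in each direction), against 58.2% (34.5% higher and 23.7% lower). The median difference, laboratory minus wild, over the 28 was -0.14 in zFPKM and -0.22 in relative log2 level, beside medians over all genes of 0.005 and 0.273. Over all genes the median was 0.275 in zFPKM with sex as a covariate and -0.468 in uncentred log2(FPKM + 0.1).

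**Figure D2:**
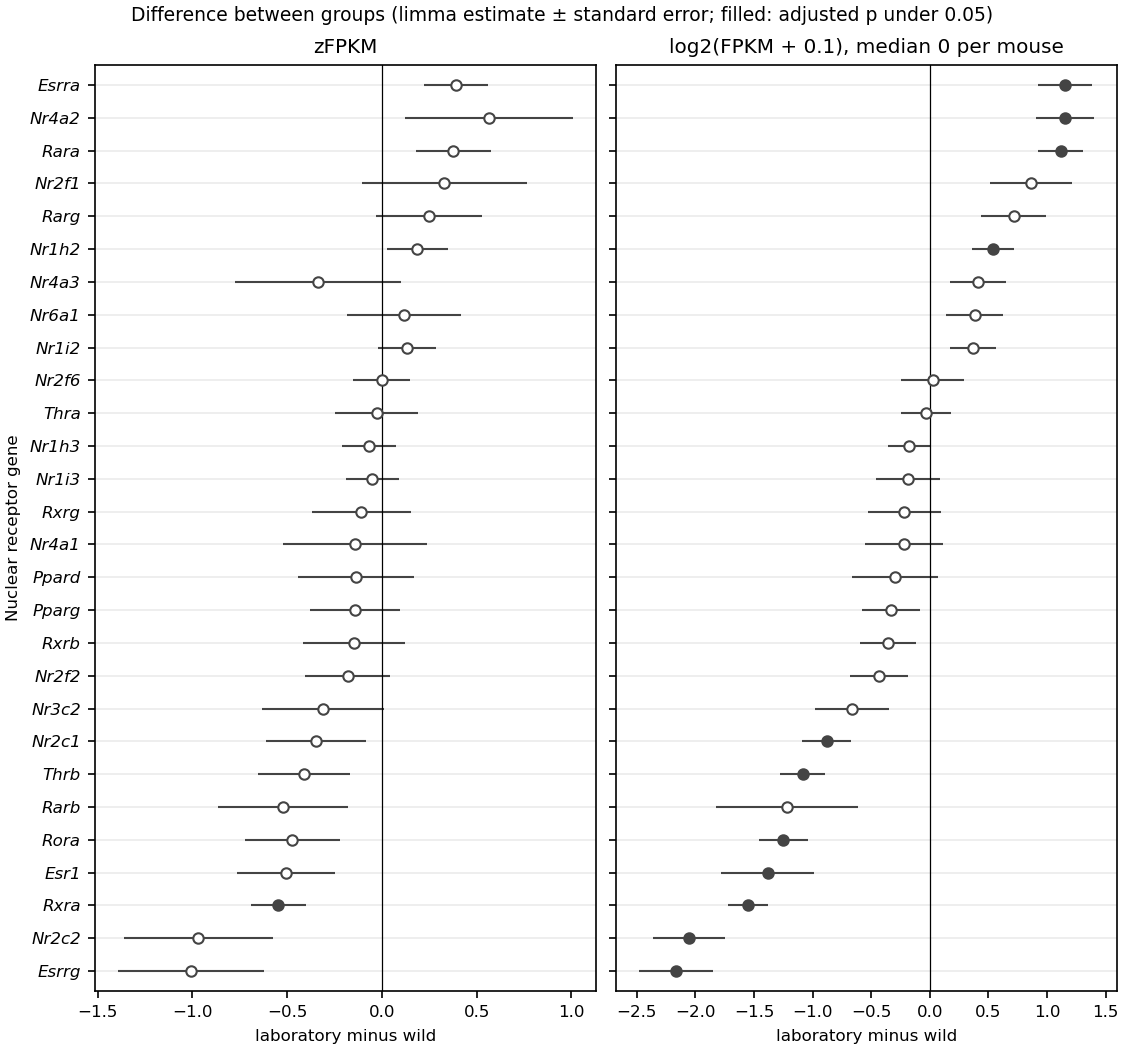
Difference between laboratory and wild mice for the 28 tested nuclear receptor genes, laboratory minus wild, in zFPKM (left) and in log2(FPKM + 0.1) with a median of 0 in each mouse (right), as limma estimates with their standard errors over 3 mice per group. Filled points pass at an adjusted p under 0.05, which 1 gene (Rxra) does on the left and 11 do on the right.

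The retinoid X receptors are the shared partners of many other receptors, and Rxra is the form that predominates in hepatocytes. The Rxra gene (GRCm38 chromosome 2) had 13.7, 18.4 and 16.5 FPKM in the 3 laboratory males and 73.1, 76.5 and 88.8 in wild animals. Every wild mouse, the male included, was above every laboratory mouse, and the mean was 4.90 times higher in wild mice. The difference was -0.55 ± 0.14 in zFPKM (estimate ± SE, limma, adjusted p = 0.00228) and -1.55 ± 0.17 in relative log2 level (adjusted p = 0.000558). The call in zFPKM was lost with sex as a covariate (-0.39, adjusted p = 0.212), without wild mouse 3 (-0.50, adjusted p = 0.0845), without the trend of the variance (adjusted p = 0.173), without a filter (adjusted p = 0.45) and with males only (adjusted p = 0.411). Over all 19 alternatives the adjusted p ran from 8.38e-05 to 0.45, and the difference was below 0 in each. Rxra made up 7.26% to 9.94% of the summed FPKM of the 30 receptors in laboratory mice, against 21.3% to 22.8% in the wild group.

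Rxrb had 1.10, 1.25 and 2.14 FPKM in laboratory males and 2.74, 3.15 and 3.73 in wild animals. Rxrg, best known from muscle and brain, had 1.22, 2.24 and 1.84 against 4.46, 3.31 and 2.72. Neither gene passed on the zFPKM or the relative log2 scale, where their differences were -0.36 ± 0.24 and -0.22 ± 0.31. For Rxrb, up to 4 copies were listed, 1 on the chromosome and the others on alternate sequences of the genome build, which can split the reads. Only the copy that was also listed for laboratory mouse 1 was used, and it lies on an alternate sequence. The chromosomal copy had 1.57 and 2.72 FPKM in laboratory mice 2 and 3 and 2.86, 2.63 and 3.01 in wild animals, and overlapped. The separation of Rxrb in FPKM thus depends on the copy. Within a mouse, the ratio of Rxra to the copy of Rxrb used was 7.69 to 14.8 in laboratory and 23.8 to 26.7 in wild mice. With the copies summed, a choice made after seeing the data, it was 12.5, 3.27 and 1.70 in laboratory males, the first with 1 copy listed, and 6.52, 6.61 and 6.58 in wild animals, so that the groups overlapped.

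Promoter sequence is shown for 3 of the members that were lower in laboratory mice under every scaling with a common centre, Rxra, Thrb and Nr2c2, so that their start regions can be compared. Each window runs from 250 bases before the start site to 50 bases from it (RefSeq, GRCm38.p6, plus strand of the genome for all 5 windows). Capitals mark AGGTCA, the core motif that many nuclear receptors bind, and GGGCGG, the GC box, searched on both strands, so that TGACCT and CCGCCC are the same motifs read on the other strand. The first Rxra window is chr2:27676951-27677250, the second is chr2:27709042-27709341, those of Thrb are chr14:17660710-17661009 and chr14:17981394-17981693, and that of Nr2c2 is chr6:92092183-92092482.
Rxra first start: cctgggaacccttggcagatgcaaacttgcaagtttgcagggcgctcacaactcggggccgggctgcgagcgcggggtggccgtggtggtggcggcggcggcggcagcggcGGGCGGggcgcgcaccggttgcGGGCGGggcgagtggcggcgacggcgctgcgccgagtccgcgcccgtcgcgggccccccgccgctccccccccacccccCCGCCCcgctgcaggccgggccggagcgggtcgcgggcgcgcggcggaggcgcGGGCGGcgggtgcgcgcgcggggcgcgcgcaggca
Rxra second start: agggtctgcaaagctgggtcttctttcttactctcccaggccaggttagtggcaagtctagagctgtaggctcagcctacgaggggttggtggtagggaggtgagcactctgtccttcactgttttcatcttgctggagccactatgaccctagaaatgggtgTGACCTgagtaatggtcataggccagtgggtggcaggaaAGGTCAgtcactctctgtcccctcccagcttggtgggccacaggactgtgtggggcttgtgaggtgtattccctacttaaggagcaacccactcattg
Thrb first start: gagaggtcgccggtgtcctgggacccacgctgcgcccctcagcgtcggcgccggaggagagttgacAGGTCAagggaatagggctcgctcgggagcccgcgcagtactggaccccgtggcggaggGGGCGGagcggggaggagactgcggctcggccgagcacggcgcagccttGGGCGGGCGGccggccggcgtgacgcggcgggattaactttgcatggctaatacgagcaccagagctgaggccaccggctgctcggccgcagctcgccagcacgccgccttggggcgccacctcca
Thrb second start: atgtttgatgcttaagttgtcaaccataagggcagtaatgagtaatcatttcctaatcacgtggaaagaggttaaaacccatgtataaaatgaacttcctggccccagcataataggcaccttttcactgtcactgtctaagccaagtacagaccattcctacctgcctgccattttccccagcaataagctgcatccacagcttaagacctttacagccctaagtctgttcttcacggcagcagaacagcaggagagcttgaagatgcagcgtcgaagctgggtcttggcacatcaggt
Nr2c2: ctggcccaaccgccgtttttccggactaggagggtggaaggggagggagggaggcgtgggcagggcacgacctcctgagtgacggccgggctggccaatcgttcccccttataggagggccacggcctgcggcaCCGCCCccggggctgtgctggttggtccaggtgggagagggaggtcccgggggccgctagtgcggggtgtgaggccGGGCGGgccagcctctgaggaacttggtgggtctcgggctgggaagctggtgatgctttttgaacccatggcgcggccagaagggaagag
The first Rxra window was 83.0% G and C with 55 CpG and held 4 GC boxes and no AGGTCA. The second was 54.3% G and C with 1 CpG and held AGGTCA at 2 places, starting at bases 164 and 203 of the window, and no GC box. The first Thrb window held 1 AGGTCA, starting at base 67, and 3 GC boxes, and the second held neither motif. That of Nr2c2 held 2 GC boxes and no AGGTCA. Of the 30 genes, 29 had a window (Thra had no entry), 46 windows in all, and 8 of the 46 (17.4%) held AGGTCA, against 16.3% of all 32851 promoter windows. The genes with the motif were Nr6a1, Pparg, Rara, Rarg, Rxra, Rxrg and Thrb, which include members that were higher, lower and not called. GC boxes were found in 23 of the 46 windows and in 35.7% of all windows.

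The xenobiotic receptors PXR (Nr1i2) and CAR (Nr1i3) sense drugs, bile acids and other foreign compounds and induce genes of detoxification. Nr1i2 had 15.1, 18.9 and 29.0 FPKM in laboratory males and 26.1, 26.6 and 25.7 in wild animals. The wild mice lay within the range of the laboratory mice. Nr1i3 had 20.7, 26.9 and 46.6 against 39.7, 53.3 and 84.5, and the groups overlapped. Neither passed, with differences of 0.13 ± 0.16 (adjusted p = 0.658) and -0.05 ± 0.14 (adjusted p = 0.869) in zFPKM. Both signs depended on the fit: that of Nr1i2 turned with uncentred log2(FPKM + 0.1) (-0.37) and that of Nr1i3 with sex as a covariate (0.26). The medians over all genes in these fits were -0.468 and 0.275, respectively.

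Genes known to be induced by PXR or CAR differed widely between the groups. Of 12 such genes, 9 passed, all lower in laboratory mice (75.0%), against 7.28% of all genes called lower. The median difference of the 12 was -0.54 in zFPKM, beside 0.005 over all genes. Cyp2b10, a cytochrome P450 known as a CAR target, had 0, 0.169 and 0.122 FPKM in laboratory males and 43.4, 9.42 and 7.62 in wild animals. The wild male was the highest, and no laboratory mouse reached 1 (difference -2.75 ± 0.35 in zFPKM, adjusted p = 1.31e-12).
Ugt1a1, which conjugates bilirubin, had 4.79, 5.91 and 4.49 against 205, 343 and 283. Cyp2c29 had 33.0, 59.5 and 43.9 against 2763, 1344 and 1129. Gsta1, a glutathione S-transferase, had 4.05, 4.49 and 3.99 against 49.5, 47.2 and 44.9. In these 3 genes the groups were far apart, with limma adjusted p of 3.59e-31, 3.33e-44 and 7.87e-07. These p rest on the variance trend over all genes, and without that trend the call of Gsta1 was lost. The highest gene of the list, Cyp3a11, a PXR target, had 451, 624 and 249.8 against 3931, 2273 and 360.5, and overlapped. It was called lower in zFPKM (-0.40 ± 0.10, adjusted p = 0.000637) but not in relative log2 level (adjusted p = 0.338), nor in zFPKM without laboratory mouse 3, wild mouse 2 or wild mouse 1, the last with a difference of -0.14. With sex as a covariate 5 of the 12 passed (41.7%), all lower, against 7.38% of all genes called in either direction. On the relative log2 scale 8 did, all lower, against 18.6% of all genes called lower.

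**Figure D3:**
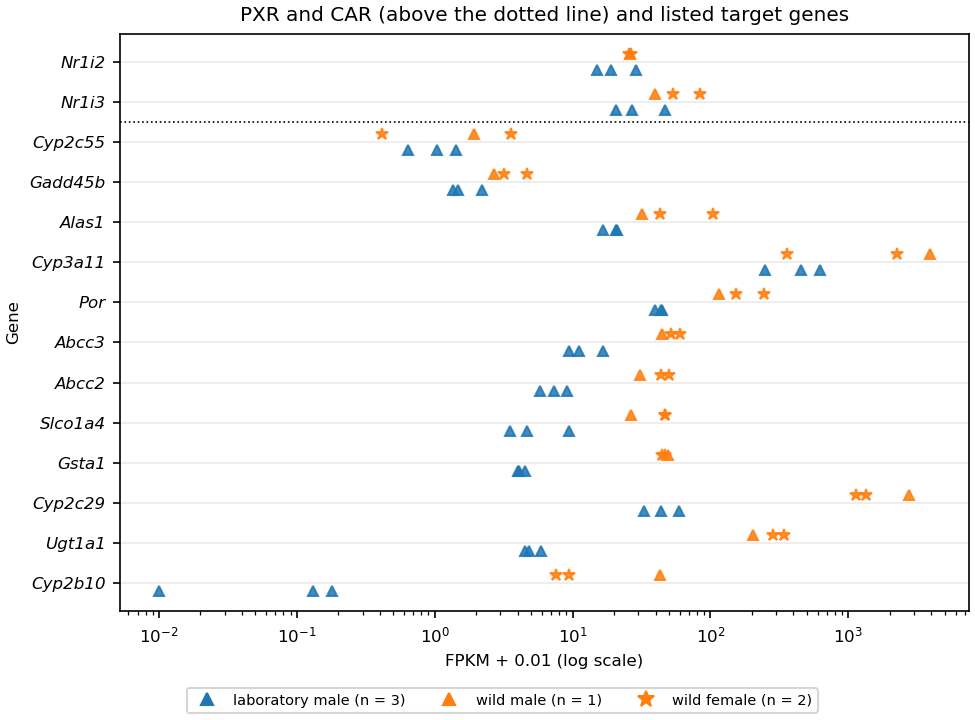
FPKM + 0.01 on a log axis in each mouse for the receptors PXR (Nr1i2) and CAR (Nr1i3), above the dotted line, and 12 listed target genes below it, ordered by their zFPKM difference. The receptors overlap between the groups, while Cyp2b10, Ugt1a1, Cyp2c29 and Gsta1 do not, the laboratory mice staying at or under 59.5 FPKM in all of them.

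The oxysterol receptors LXRα (Nr1h3) and LXRβ (Nr1h2) control cholesterol efflux and fatty acid synthesis. Nr1h3, the form enriched in liver, had 23.2, 29.2 and 30.3 FPKM in laboratory males and 55.5, 46.0 and 54.9 in wild animals. The groups did not overlap in FPKM, but relative to each mouse's median the difference was -0.18 ± 0.18 (adjusted p = 0.435). Nr1h2, expressed in most tissues, had 16.2, 15.1 and 21.1 against 16.4, 21.0 and 22.6. It overlapped in FPKM and was called higher in laboratory mice in relative log2 level (0.54 ± 0.18, adjusted p = 0.0361). That direction turned in uncentred log2(FPKM + 0.1) (-0.20), where the median over all genes was -0.468. Of 9 LXR target genes 1 passed, Cyp7a1, the rate-limiting enzyme of bile acid synthesis, with 2.74, 6.22 and 5.08 FPKM in laboratory males and 23.6, 40.9 and 24.9 in wild animals. All wild mice were above all laboratory mice (-0.68 ± 0.18 in zFPKM, adjusted p = 0.00231), and the call was lost with sex as a covariate (adjusted p = 0.298) and without wild mouse 2. The 1 of 9 called lower in zFPKM is 11.1%, against 7.28% of all genes called lower. Of the 9, 3 passed in relative log2 level (33.3%), all lower, against 18.6% of all genes called lower. Scd1, the highest of the list and a desaturase of fatty acids, ranged from 588.5 to 1290 and from 976 to 1188 FPKM, respectively, and overlapped.

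The fatty acid receptors Pparg, which drives fat storage, and Ppard were low in both groups. Pparg had 1.68, 2.95 and 2.64 FPKM in laboratory males and 5.72, 5.07 and 4.52 in wild animals. Ppard had 0.584, 0.810 and 1.54 against 2.14, 2.59 and 1.37, as listed for 1 of its 2 copies. Neither passed in zFPKM (adjusted p = 0.773 and 0.84) or in relative log2 level (adjusted p = 0.297 and 0.52).

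Of the thyroid hormone receptors, Thrb passed in relative log2 level and neither gene passed in zFPKM. Thrb, which encodes the form that predominates in liver, had 1.46, 1.73 and 1.85 FPKM in laboratory males and 5.70, 5.95 and 6.97 in wild animals. Thra had 2.90, 3.54 and 4.15 against 6.80, 5.88 and 5.48. The groups did not overlap for either gene in FPKM. In relative log2 level, Thrb was lower in laboratory mice by -1.08 ± 0.19 (adjusted p = 0.00329), whereas Thra was at -0.03 ± 0.21 (adjusted p = 0.916). In zFPKM the difference of Thrb did not pass (-0.41 ± 0.24, adjusted p = 0.283). The ratio of Thrb to Thra within a mouse was 0.446, 0.488 and 0.506 in laboratory males against 0.838, 1.01 and 1.27 in wild animals. Thrb was the lesser form in every laboratory mouse and at about the level of Thra in wild mice.

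Among 6 genes known to respond to thyroid hormone, 2 were called higher and 1 lower in laboratory mice in zFPKM. The shares of all genes called in zFPKM were 7.17% higher and 7.28% lower. Dio1, the deiodinase that converts thyroxine to the active hormone, had 63.7, 60.1 and 32.4 FPKM in laboratory males and 0.195, 17.9 and 0.755 in wild animals. All laboratory mice were above all wild mice, and wild mouse 2 stood well above the other wild mice. The difference was 2.08 ± 0.20 in zFPKM (limma, adjusted p = 5.88e-24) and 5.66 in relative log2 level (adjusted p = 0.00904). In zFPKM the standard error and p rest on the variance trend over all genes and do not measure the wide spread of the wild mice. Without that trend the call was lost. With the trend kept, Dio1 passed with sex as a covariate (adjusted p = 0.00158). Thrsp, a lipogenic protein, had 90.3, 213 and 375 against 122, 152 and 242, and overlapped. It was called higher in zFPKM (adjusted p = 0.0126) but not in relative log2 level (adjusted p = 0.0777), nor without any 1 of laboratory mice 2 and 3 and wild mice 1 and 2. The lower gene was Cyp7a1, which is also on the LXR list. Of the 6, 1 was called higher and 1 lower in relative log2 level (33.3%), against 47.3% of all genes.

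Of the 3 retinoic acid receptors 1 passed, Rara, and only in relative log2 level, where 47.3% of all genes passed. Rara had 8.06, 8.15 and 8.73 FPKM in laboratory males and 6.19, 5.65 and 7.43 in wild animals. It was the only 1 of the 28 tested members whose laboratory mice were all above all wild mice in FPKM. Its relative log2 level was higher in laboratory mice by 1.12 ± 0.19 (adjusted p = 0.00277), and in zFPKM its difference was 0.38 ± 0.20 (adjusted p = 0.213). Rarb, itself induced by retinoic acid, had 0.170, 0.511 and 0.656 against 2.59, 3.32 and 0.703. Wild mouse 3 was close to the laboratory mice, and the spread of Rarb was the largest among the 28 (pooled SD 0.964 in relative log2 level), so that the difference of -1.22 ± 0.61 did not pass (adjusted p = 0.128). Rarg had 1.61, 1.40 and 2.86 against 1.56, 2.25 and 1.94 and did not pass on either scale.
Of 7 tested genes known to respond to retinoic acid, Rarb among them, 1 passed in zFPKM (14.3%, against 14.4% of all genes). In relative log2 level 2 did (1 higher and 1 lower; 28.6%, against 47.3%). That in zFPKM was Cyp26b1, which degrades retinoic acid, with 0, 0.0417 and 0.136 FPKM in laboratory males and 1.71, 1.37 and 0.727 in wild animals (-1.69 ± 0.45 in zFPKM, adjusted p = 0.00294). The call was lost with sex as a covariate (adjusted p = 0.0917) and without laboratory mouse 1. Its relative Cyp26a1, often used as a readout of retinoic acid in liver and named here after its values were seen, had 1.18, 17.5 and 13.0 against 82.0, 19.9 and 1.56. Laboratory mouse 1 and wild mouse 3 were the lowest, the wild male was the highest, and the groups overlapped. Dhrs3, a retinal reductase and the highest of the list, had 79.5 to 108 FPKM in wild and 81.4 to 96.3 in laboratory mice.

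Rora, a receptor that activates clock and lipid genes through the same sites at which the REV-ERB proteins repress, had 1.37, 1.31 and 1.53 FPKM in laboratory males and 4.97, 6.27 and 6.43 in wild animals. The groups were well separated relative to their spread (-1.25 ± 0.21 in relative log2 level, adjusted p = 0.00271), although the zFPKM difference of -0.47 ± 0.25 did not pass (adjusted p = 0.217). Of 5 clock genes under control of ROR and REV-ERB, 1 passed in zFPKM, Arntl, a core activator of the clock, with 0.841, 1.54 and 2.73 against 11.7, 10.2 and 6.93 (-0.65 ± 0.23, adjusted p = 0.0367). The share of all genes called lower in zFPKM was 7.28%. All 5 differences were below 0, beside a median over all genes of 0.005 in zFPKM. In relative log2 level 3 of the 5 passed, all lower, against 18.6% of all genes called lower, and uncentred 5 of 5 did, against 37.9%. The call of Arntl was lost with sex as a covariate (adjusted p = 0.191) and without any 1 of laboratory mice 1 and 2 and wild mice 2 and 3. Nfil3, a repressor within the clock and the highest of the list, had 5.35, 8.61 and 8.89 against 18.7, 30.6 and 12.5 and did not pass (adjusted p = 0.482). The hour at which each mouse was killed is not given in the labels.

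Of 5 orphan receptors of the NR2 group, Nr2c2 and Nr2c1 passed in relative log2 level, both lower in laboratory mice, and none passed in zFPKM. Of all genes, 47.3% passed in relative log2 level and 14.4% in zFPKM. Nr2c2 (TR4), which competes with other receptors for AGGTCA repeats, had 0.181, 0.109 and 0.157 FPKM in laboratory males and 1.25, 1.67 and 2.01 in wild animals. The mean was 11.0 times higher in wild mice, all of which were far above the laboratory mice (-2.05 ± 0.31 in relative log2 level, adjusted p = 0.00169). In zFPKM the difference was -0.97 ± 0.39 (adjusted p = 0.0792). Its paralogue Nr2c1 (TR2) had 1.10, 1.35 and 1.39 against 4.04, 4.02 and 4.33, with little spread within either group (-0.88 ± 0.21 in relative log2 level, adjusted p = 0.0111).
Nr2f6 (EAR2) was among the highest members, with 17.6, 28.2 and 26.4 against 51.9, 31.9 and 35.3 FPKM. Its zFPKM difference was -0.002 ± 0.15, and the sign of this value turned with the scaling. Nr2f2 (COUP-TFII) had 2.29, 3.36 and 2.94 against 7.90, 5.11 and 6.84 and did not pass (adjusted p = 0.182 in relative log2 level). Nr2f1 (COUP-TFI) stayed under 0.5 FPKM in every mouse, from 0.160 to 0.451 in laboratory and from 0.112 to 0.380 in wild mice. Nr6a1, the germ cell nuclear factor, had 1.07, 1.09 and 1.70 against 1.36, 1.84 and 1.78 and overlapped.

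The steroid receptors among the members were low in laboratory mice. Esr1, the oestrogen receptor that is the main form in liver, had 0.626, 1.30 and 1.83 FPKM in laboratory males and 3.03, 8.86 and 5.70 in wild animals. The 2 females were the highest, and the wild male was still above all laboratory males. The relative log2 difference was -1.38 ± 0.40 (adjusted p = 0.0224), and the zFPKM difference was -0.50 ± 0.26 (adjusted p = 0.201). With sex as a covariate the zFPKM difference was 0.004, beside a median over all genes of 0.275. Nr3c2, the mineralocorticoid receptor, had 0.681, 0.751 and 0.515 against 2.13, 1.62 and 1.87 and did not pass (adjusted p = 0.117 in relative log2 level). Pgr, the progesterone receptor, was listed at 0 in all mice but laboratory mouse 3, at 0.00368. Vdr, the vitamin D receptor, which is known to be scarce in hepatocytes, was listed at 0 for every laboratory male and wild mouse 3, with 0.00991 and 0.0414 for wild mice 1 and 2.

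The oestrogen-related receptors Esrra and Esrrg, which have no known steroid ligand and drive mitochondrial genes with the coactivator PGC-1α, differed in opposite directions in relative log2 level. Esrra had 15.7, 15.9 and 19.4 FPKM in laboratory males and 15.7, 10.6 and 12.2 in wild animals. The wild male lay at the level of the laboratory males, and the relative log2 level was higher in laboratory mice by 1.16 ± 0.23 (adjusted p = 0.00522). In zFPKM this difference was 0.39 ± 0.17 (adjusted p = 0.109). Esrrg had 0.0937, 0.245 and 0.158 against 1.34, 1.77 and 2.61. Every wild mouse was far above every laboratory mouse, and the mean was 11.5 times higher in wild mice. Esrrg was lower in laboratory mice by -2.17 ± 0.32 in relative log2 level (adjusted p = 0.00156) and by -1.01 ± 0.39 in zFPKM, which did not pass (adjusted p = 0.0586).
Of 7 genes known to be driven by these receptors, Esrra among them, 2 passed in zFPKM, both lower in laboratory mice (28.6%, against 7.28% of all genes called lower). Of the 7, 5 passed in relative log2 level (71.4%; 1 higher and 4 lower), against 47.3% of all genes. Atp5b, a subunit of ATP synthase, had 94.6, 115 and 79.9 against 865, 820 and 790 FPKM (-0.83 ± 0.11, adjusted p = 1.56e-12). Acadm, the medium-chain acyl-CoA dehydrogenase, had 40.2, 48.6 and 46.2 against 249, 275 and 254 (-0.62 ± 0.12, adjusted p = 1.02e-05). Both genes kept wide gaps between the groups and passed with sex as a covariate as well (adjusted p = 0.00599 and 0.0447).

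The NR4A receptors, which are induced within minutes by stress and hormones, were scarce. Nr4a1 had 0.296, 0.275 and 0.642 FPKM in laboratory males and 0.537, 0.959 and 1.11 in wild animals and overlapped. Nr4a2 was listed at 0 to 0.130 in laboratory and at 0 to 0.0283 in wild mice, and Nr4a3 at 0 to 0.00913 and 0.00801 to 0.0777. At such levels the value rests on very few reads and on the added 0.1: Nr4a2 was called higher in laboratory mice in relative log2 level (1.15 ± 0.25, adjusted p = 0.00739) but not in zFPKM (adjusted p = 0.463), and the sign of Nr4a3 differed between the scales (-0.34 and 0.41). Of 10 tested immediate early genes, which like the NR4A genes respond quickly to handling and stress, none passed in zFPKM by limma. None had an unadjusted p under 0.05 either. Of all genes, 14.4% passed and 25.7% had such an unadjusted p. In relative log2 level 1 of the 10 passed (10.0%), against 47.3% of all genes. The highest of the 10, Ier2, had 15.8 to 19.4 FPKM in laboratory and 13.1 to 24.2 in wild mice.

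Ratios between receptors of the same mouse do not depend on a factor common to all its genes. They can still carry a difference that goes with transcript length. They were compared for 13 pairs, which were chosen with the levels known. In 10 of the 13 the groups did not overlap, or in 9 with the copies of Rxrb summed. Among these 10, the first gene has the longer transcript in the pairs led by Rxra, Thrb, Nr2c2, Esrrg and Nr2f2. It has a slightly shorter one in those led by Rarb (3108 bases, against 3384 for Rara) and Nr1h3 (1985 bases, against 1999 for Nr1h2). The part of length in the ratios was not tested. Of all 325 pairs among the 26 tested members above 0 in every mouse, 58.2% did not overlap. Which gene stands first was also chosen with the levels known, and 4 of the pairs share Rxra, so the direction of the ratios is a description. With 3 mice against 3 a two-sided exact permutation test cannot give a p under 0.1, which these 10 pairs reached (0.13 after Benjamini-Hochberg adjustment over the 13), so none passed. The ratio of Esrrg to Esrra was 0.00986 ± 0.00494 in laboratory and 0.156 ± 0.0655 in wild mice (SD, n = 3). That of Nr2c2 to Nr2c1 was 0.119 ± 0.0424 and 0.395 ± 0.0788. The partner Rxra exceeded LXRα in every wild mouse, at a ratio of 1.32 to 1.66 to Nr1h3, and fell short of it in every laboratory mouse, at 0.544 to 0.630. The ratio of Rxra to Nr1i3 (CAR) was 0.354 to 0.685 in laboratory and 1.05 to 1.84 in wild mice. The ratios of Nr1i3 to Nr1i2, Pparg to Ppard and Rara to Rarg overlapped.

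**Figure D4:**
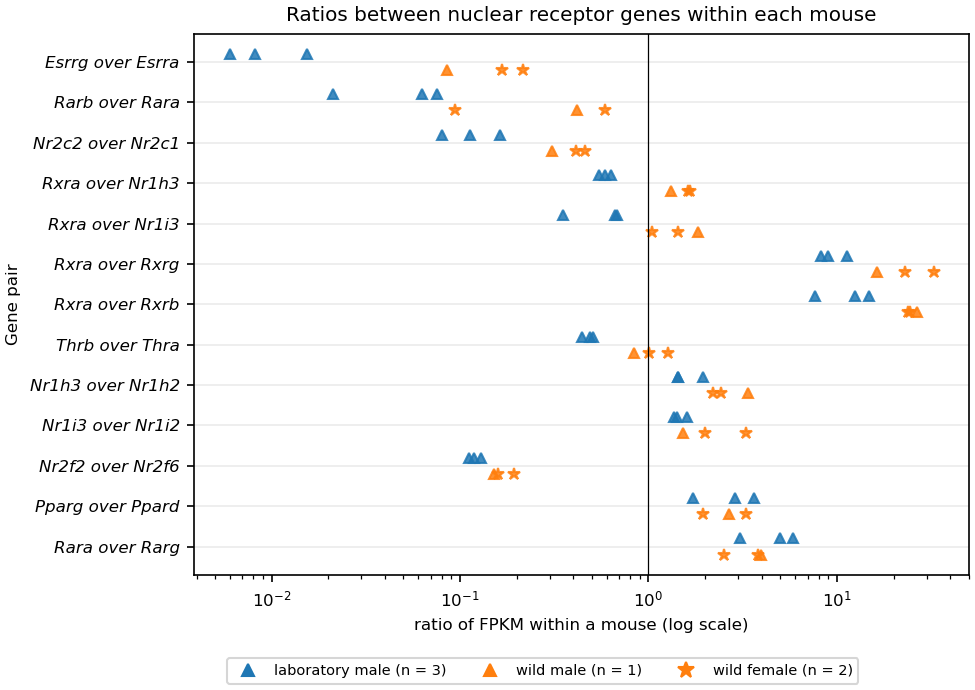
Ratio of the FPKM of 2 nuclear receptor genes within each mouse, on a log axis with a line at equal levels, for 13 pairs in 3 laboratory males, 1 wild male and 2 wild females. In 10 pairs every wild mouse lies to the right of every laboratory mouse, from Esrrg over Esrra (mean 0.00986 and 0.156) to Nr2f2 over Nr2f6 (0.120 and 0.169), with 1 copy of Rxrb used, and the pairs Nr1i3 over Nr1i2, Pparg over Ppard and Rara over Rarg overlap.

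Members that were lower in laboratory mice tended to have long transcripts. Over the 28 tested members the Spearman correlation between the length of the longest transcript and the difference was -0.56 in zFPKM and -0.50 in relative log2 level, given as a description of genes that share the same 6 libraries. Over 16497 genes with a length the corresponding values were -0.12 and -0.153. The 7 genes called lower in relative log2 level had transcripts of 3732 (Nr2c1) to 10878 bases (Rora), and the 4 called higher had 1999 (Nr1h2) to 3568 bases (Nr4a2). With the trend of all genes with length removed, the correlations over the members were -0.55 and -0.45. After this removal Rxra was still the 1 member that passed in zFPKM (-0.51, adjusted p = 0.00471; 13.3% of all genes passed), and in relative log2 level 14 members passed (7 in each direction; 47.6% of all genes), among them all 11 from before. Whether transcript length has a part in the differences of single members was not tested.

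**Figure D5:**
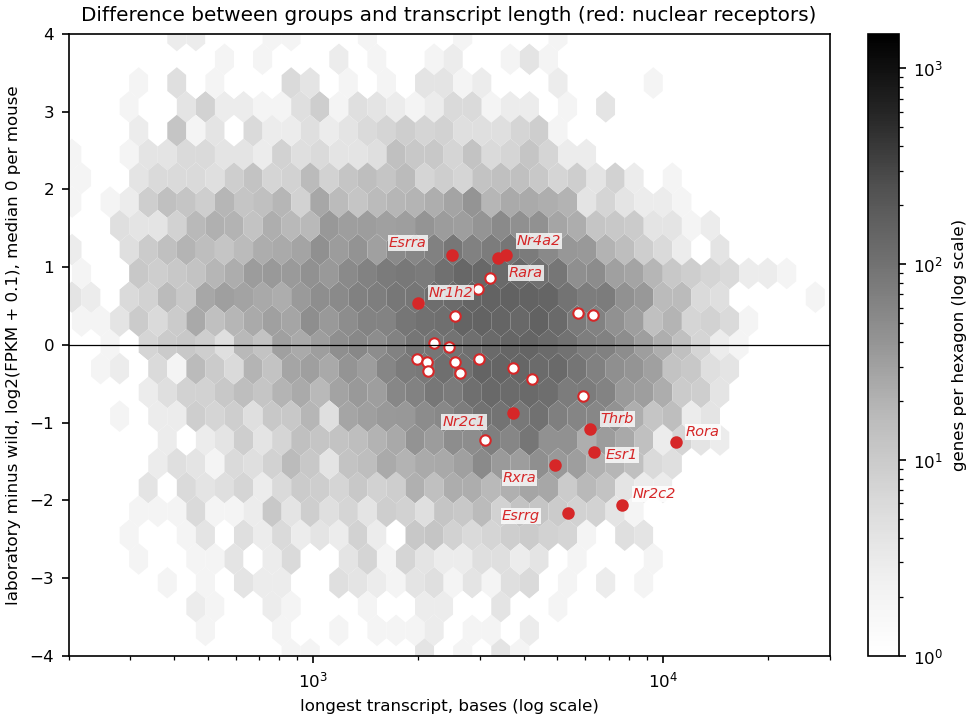
Difference in relative log2 level (laboratory minus wild) against the length of the longest transcript on a log axis, for all genes with a length as grey hexagons shaded by the number of genes and for the 28 nuclear receptors in red, filled and named where the adjusted p is under 0.05. The lower genes Rora (10878 bases), Nr2c2 (7647 bases) and Esrrg (5373 bases) lie to the right of the higher genes Esrra (2489 bases) and Nr1h2 (1999 bases).

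Among the 19 other nuclear receptor genes, 13 were tested, and 2 are described here that passed in zFPKM and were higher in laboratory mice. Nr1h4 (FXR), the bile acid receptor, had 52.8, 63.4 and 95.6 FPKM in laboratory males and 36.5, 38.6 and 52.0 in wild animals and was higher in laboratory mice (0.51 ± 0.13, adjusted p = 0.00217). Nr1h5 (FXRβ) had 1.11, 1.32 and 3.81 against 0.0684, 0.576 and 0.461 and was also higher (1.24 ± 0.36, adjusted p = 0.00743), a call lost without any 1 of the laboratory mice or wild mouse 1. The highest of the 19 was Hnf4a, a receptor that defines hepatocytes, at 64.0 to 91.9 and 109 to 164 FPKM, with a zFPKM difference of -0.06 ± 0.12. None of 13 coregulators passed in zFPKM by limma (1 had an unadjusted p under 0.05), against 14.4% of all genes. In relative log2 level 4 did (30.8%), against 47.3% of all genes. Hdac3, a corepressor enzyme and the highest of them, had 7.79 to 15.0 and 13.0 to 17.2 FPKM.

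The spread between mice of a group was small for several receptors with large differences between groups. The pooled SD within groups in relative log2 level was the smallest for Thrb, at 0.063, followed by Nr2c1 at 0.1, Rxra at 0.132 and Rora at 0.147. The median over the 28 was 0.292, beside 0.334 over all genes tested. After Rarb, the largest were those of Esr1 at 0.598 and Ppard at 0.497.

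Markers of other liver cells moved with the groups in part. In zFPKM none of 8 Kupffer cell and none of 8 sinusoidal endothelial markers passed by limma (1 of each list had an unadjusted p under 0.05). With sex as a covariate all 8 Kupffer cell and all 8 sinusoidal endothelial markers had a difference above 0. Their medians were 1.013 and 0.734 in zFPKM, but the median over all genes in that fit was itself 0.275. Of these markers 3 and 1 passed, all higher in laboratory mice, against 7.38% of all genes. By limma, 8 and 6 had an unadjusted p under 0.05, against 23.2% of all genes. In zFPKM without this covariate, where 14.4% of all genes passed, 2 of 10 stellate cell markers were higher and 1 lower in laboratory mice. Of 6 cholangiocyte markers 1 was higher, and of 7 erythrocyte markers 6 were higher. In relative log2 level, where 47.3% of all genes passed, 8 of the 10 stellate cell markers passed (3 higher and 5 lower), as did 5 of 6 cholangiocyte, 5 of 7 erythrocyte and 4 of 8 T and B cell markers, all higher. No Kupffer cell marker passed on that scale by limma (1 had an unadjusted p under 0.05), and 1 sinusoidal endothelial marker was higher. The summed FPKM of the stellate cell markers was 37.9 to 57.1 in laboratory and 87.0 to 156 in wild mice, and that of the cholangiocyte markers 29.7 to 64.6 and 12.2 to 27.6. The sums of the Kupffer cell markers (52.8 to 80.0 and 24.2 to 191), the sinusoidal endothelial markers (28.3 to 43.1 and 24.1 to 83.8), the T and B cell markers (4.41 to 5.86 and 1.84 to 7.08, 1 of 8 higher in laboratory mice) and the erythrocyte markers (1340 to 5135 and 724 to 1581) overlapped. No marker of these lists was at 0 in every mouse. Their part in the differences of the receptors was not tested.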

How the data were processed

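RNA-Seq of 6 mouse livers (3 laboratory, 3 wild, grouped by the labels) was analysed from 1 table per mouse. That of laboratory mouse 1 differed in form, with 49995 entries against 52188 for each other mouse. It carried no marks of failed estimates and listed Rxrb and Ppard at 1 locus each. Whether it was produced in the same way as the others is not known. Per the labels and the methods, the authors aligned stranded single-end reads to a masked GRCm38.p6 genome with kalign and calculated FPKM with the Tuxedo pipeline (Picard is also named). The authors deposited FPKM, which corrects for transcript length and depth, together with zFPKM, a score they derived from log2 FPKM using the mode and SD of each mouse. The confidence bounds were not used, and the count test of the methods was not repeated.

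Of 47256 names listed once in every mouse, 24 with a failed or skipped estimate were left out (not marked for laboratory mouse 1). Ppard and Rxrb, listed at several loci, were added, giving 47234 genes. Genes with zFPKM above -3 in at least 3 mice (18621) were compared after raising lower values to -3, by limma 3.58.1 in R 4.3.3 (eBayes with trend, Benjamini-Hochberg over all genes, adjusted p under 0.05). Differences are laboratory minus wild. Each library came from a different mouse. Single ratios were compared by exact permutation in Python 3.11.15 (scipy 1.17.1). Lengths came from the longest GENCODE transcript (88.6% of genes tested; lowess span 0.3). The procedure was tested on simulated data. All 30 members are named, and from other lists the up to 4 largest passing differences and the highest gene. Members and lists were chosen with earlier results of these data known. Of the marker genes, Ier3, Cps1, Mup20 and Mup7 were without a value. Alternatives were other scales, centrings, filters, variance models, sex as a covariate, males only and each mouse left out; relative log2 levels and removal of the length trend were chosen after seeing the data. 1 gene of the other lists is not reported here.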

Additional observations from a re-analysis of the deposited data

How the results depend on the processing

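As reported, 1 of 28 receptors and 2690 of 18621 genes passed (1335 higher and 1355 lower in laboratory mice), and a floor of -5 left the count of receptors at 1. The following counts are of receptors in all (higher, lower), then of all genes (higher, lower). In log2(FPKM + 0.1) they were 16 (0, 16) and 8591 (1525, 7066), and in log2(FPKM + 1) 14 (0, 14) and 8243 (1384, 6859). With a median of 0 in each mouse they were 9 (2, 7) and 5274 (2686, 2588), and with quantile normalization 10 (3, 7) and 7282 (3478, 3804). Without a filter they were 0 (0, 0) and 23 (15, 8), with zFPKM above -3 in all 6 mice 3 (0, 3) of 26 and 2045 (967, 1078), and without the trend of the variance 0 (0, 0) and 795 (443, 352). With sex as a covariate they were 0 (0, 0) and 1374 (1125, 249), and with males only 0 (0, 0) and 0 (0, 0), where 2 receptors and 3120 genes had an unadjusted p under 0.05. Relative log2 levels gave 11 (4, 7) and 8806 (5342, 3464), and with the length trend removed 14 (7, 7) and 7851 (4896, 2955), both chosen after seeing the data. Leaving out 1 mouse gave 0 to 3 receptors (0 to 2 higher, 0 to 3 lower), with 0 without wild mouse 3, 3 without laboratory mouse 3 and 3 without wild mouse 1, and 1420 to 2558 of all genes (661 to 1645 higher, 565 to 1321 lower). The cause of these changes was not tested.

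Directions of differences that did not pass turned as follows. In log2(FPKM + 0.1) and log2(FPKM + 1), Nr1i2 (-0.37 and -0.35), Nr1h2 (-0.20 and -0.19), Rarg (-0.0244 and -0.0067), Nr6a1 (-0.36 and -0.22), Hdac3 (-0.45 and -0.42), Scd1 (-0.43 and -0.43), Dhrs3 (-0.17 and -0.16) and Ier2 (-0.13 and -0.12) were below 0. The median over all genes in log2(FPKM + 0.1) was -0.468, and all of these genes lay above it on that scale. With a median of 0 and with quantile normalization, Thra (0.0062 and 0.0474) and Nr2f6 (0.0325 and 0.0509) were above 0, and Scd1 (-0.0318, quantile) below. With sex as a covariate and with males only, which gave the same estimates, Nr1i3 (0.26), Nr1h3 (0.0305), Pparg (0.0156), Ppard (0.0706), Rxrb (0.17), Thra (0.12), Esr1 (0.004), Nr4a1 (0.37), Nr4a3 (0.22) and Hnf4a (0.15) were above 0. The median over all genes with sex as a covariate was 0.275, and of these genes only Nr4a1 lay above it. In relative log2 level without and with the length trend removed, Nr2f6 (0.0232 and 0.14) and Nr4a3 (0.41 and 0.65) were above 0, as were Thra (0.0766) and Hnf4a (0.0143) with it removed and Nr2f6 (0.0099) in zFPKM with it removed. With 1 mouse left out, the ranges that crossed 0 were those of Nr1i3 (-0.21 to 0.0733), Pparg (-0.26 to 0.0096), Ppard (-0.24 to 0.0351), Rxrg (-0.24 to 0.0637), Thra (-0.10 to 0.0925), Nr2f1 (-0.0358 to 0.55), Nr2f6 (-0.0739 to 0.0678), Nr4a1 (-0.40 to 0.0164), Nr6a1 (-0.0635 to 0.25), Hnf4a (-0.17 to 0.0314) and Scd1 (-0.0179 to 0.22). No paired analysis was possible because the labels give no replicate numbers that the groups share. Depth could not be judged without counts, and values near 0 FPKM limit Nr4a2, Nr4a3, Pgr and Vdr most.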
